A study of Triticum aestivum with 10 samples.

Results

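Seeds of droughted wheat plants were compared with seeds of watered plants at 72 hours after fertilization (HAF), using 4 of the 10 arrays of the series, chosen by their labels. The plants were Redland, a winter wheat, grown in a chamber after a cold period. The 2 control arrays held whole developing seeds of plants watered daily, and the 2 drought arrays held seeds of plants whose watering had been stopped. The labels place the start of the drought at 24 HAF in one passage and at 48 HAF in another, so its length at sampling is not settled. Replicates are called biological, but no plant or pot is named, so a p-value here measures only the spread among the samples, which may be technical. Arrays of watered seeds at 24 HAF and of watered and droughted seeds at 48 HAF, 2 each, served to share the estimate of the spread and to place the 72 HAF arrays in development.

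After fertilization the endosperm of a wheat grain first divides its nuclei, then forms cell walls, and later fills with storage protein and starch. Gliadins and glutenins are its main storage proteins, and the starchy endosperm also accumulates inhibitors of amylases and proteases and the antimicrobial thionins. The maternal pericarp around it is green and photosynthetic at this stage. Water deficit in vegetative wheat tissue is known for raising dehydrins and other late embryogenesis abundant (LEA) proteins, which protect dry cells. Because whole seeds were extracted, fewer cells of a type and less RNA per cell cannot be told apart.

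The array carried 61179 tested probe sets, and 1273 of them had exactly 1 gene symbol, standing for 771 genes. A readable name was given for 102 of the genes. Levels are log2 values, so a difference of 1 is 2-fold, and levels of different probe sets are not set against each other. Probe sets with x, s or a before the ending of their name can hold probes that match several transcripts, which matters for families with near-identical copies such as the gliadins. The tissue was checked on marker genes: PsbO, of green tissue, read 10.83 to 11.30 on the 4 arrays. Of the 3 pollen and anther genes, raftin1a read 2.05 to 2.65, raftin1b 4.14 to 5.32 and profilin, which other tissues also express, 12.40 to 12.60. Storage protein genes, the markers of starchy endosperm, were not at one level in the control group: the gamma-gliadin LOC543214 read 1.60 on control replicate 1 and 8.73 on control replicate 2.

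The 4 arrays did not sort by treatment. Drought replicate 1 and control replicate 2 were nearly alike, with a Pearson correlation of 0.996 across the 61179 probe sets. Only 36 probe sets were at least 2-fold higher and 27 at least 2-fold lower on the former, or 0.103% of all. Between the 2 control arrays, 6.44% of probe sets differed at least 2-fold, with 2232 higher and 1710 lower on replicate 2. Between the 2 drought arrays 16.3% differed so, with 3297 higher and 6684 lower on replicate 2. A difference between one drought and one control array was thus smaller than either difference between replicates.

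**Figure D1:**
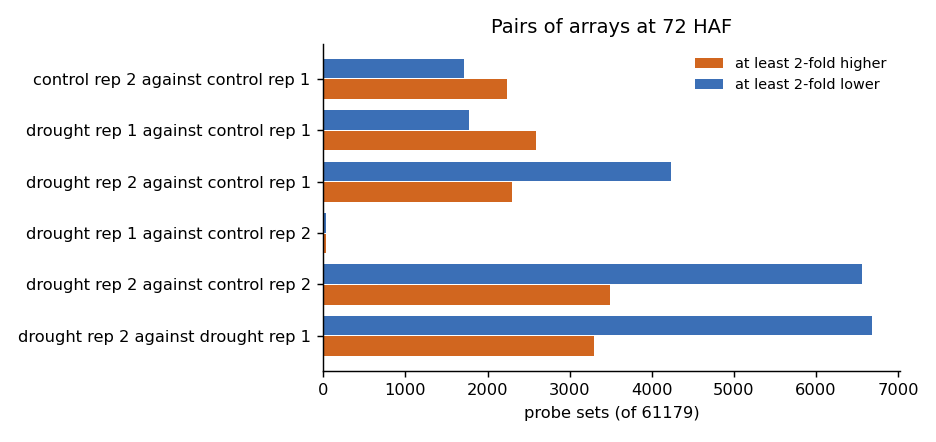
Number of tested probe sets, on a linear axis, that were at least 2-fold higher (orange) or lower (blue) on the first-named array of each pair at 72 HAF. Drought replicate 1 against control replicate 2 gives the shortest bars, 36 and 27, and drought replicate 2 gives long bars against every other array.

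Control replicate 1 and drought replicate 2 stood apart, each in its own way. Control replicate 1 correlated more closely with the 4 arrays of 48 HAF (0.980 to 0.982) than with the other 72 HAF arrays (0.959 to 0.969). Control replicate 2 and drought replicate 1 correlated with the 48 HAF arrays at 0.971 to 0.983 and 0.968 to 0.980, and with each other more closely, as given above. Control replicate 1 was at least 2-fold above each of the other 3 arrays at 494 probe sets and at least 2-fold below each at 718. Drought replicate 2 was above each at 644 and below each at 3149, and correlated with the 48 HAF arrays at 0.922 to 0.942. Of all arrays it correlated most closely with control replicate 1 of 72 HAF (0.959), against 0.951 with drought replicate 1 and 0.949 with control replicate 2. At least 2-fold differences from these 3 arrays were seen at 10.7%, 16.3% and 16.4% of probe sets. Control replicate 2 stood out in this way at 16 and 2 probe sets, and drought replicate 1 at 19 and 0. These correlations run over probe sets, which are no replicates, and carry no test.

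Hybridisation controls and RNA measures also differed among the 4 arrays. The added BioB control read 6.97 on drought replicate 2 and 4.49 to 5.44 on the other 3. Values were also less spread on drought replicate 2, with a standard deviation of 2.30 against 2.40 to 2.46 on the others. The interquartile range was 3.30 there and 3.57 to 3.80 on the others. The gap between 3′ and 5′ probe sets, a sign of transcript ends, was lower on both drought than on both control arrays. This held for sucrose synthase (6.48 and 5.73 in control, 5.17 and 4.69 in drought seeds) and G6PDH (2.83 and 2.26 against 1.95 and 2.14). It also held for CYP86 (1.84 and 1.98 against 1.61 and 1.52) and ubiquitin (-0.986 and -1.08 against -1.18 and -1.28). These gaps thus followed the treatment label. The 18S ribosomal RNA probe set read 8.02 on control replicate 1, against 11.3, 11.5 and 11.0 on control replicate 2 and drought replicates 1 and 2. The part of these measures in the differences below was not tested.

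Across all probe sets the labelled comparison gave no call. With limma's moderated test, 0 probe sets passed an adjusted p of 0.05 (0.0% of those tested), and 252 had an unadjusted p under 0.05. These 252 are a smaller share of the 61179 than the 0.05 that would fall there if no probe set differed. The smallest adjusted p was 1. The difference between the drought effects at 72 and 48 HAF also gave 0 calls (0.0%), with 227 unadjusted p-values under 0.05. The 95% interval of the median probe set, not adjusted for the number of probe sets, had a half-width of 0.925 in log2, which is 1.9-fold. Smaller differences thus mostly could not be told from 0 with 2 arrays a group, even before adjustment. To be called after adjustment a difference had to be larger still. An exact two-sided permutation test of 2 against 2 arrays cannot go below p = 0.333.

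To separate what was seen against both control arrays from what rested on one, each drought array was set against each control array. All 4 differences were at least 2-fold upward at 3 probe sets (0.0049%) and at least 2-fold downward at 0 (0.0%). The counts without 1 array were 7 higher and 18 lower without control replicate 1, and 845 and 531 without control replicate 2. Without drought replicate 1 they were 914 and 3262, and without drought replicate 2 they were 27 and 1. The smallest of the 4 differences was 1.16 at the last probe set inside the limit upward and 0.97 at the first outside it, and downward the nearest was LOC542771 at 0.867.

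The gene LOC542817, for which the tables give no name beyond its number, was the 1 annotated gene at least 2-fold higher against both controls. Its probe set, of the kind marked x, read 5.11 and 5.41 on control replicates 1 and 2 and 7.01 and 6.64 on drought replicates 1 and 2. The groups did not overlap, and the 2 control arrays were close to each other. The difference of the means was 1.56 (95% interval 0.687 to 2.44), or 2.95-fold, with a limma unadjusted p = 0.00309 and adjusted p = 1. At 48 HAF the probe set read 4.44 and 4.93 in control and 4.59 and 3.98 in drought seeds, so the drought arrays at 72 HAF were its highest of these 8. The difference between the effects at 72 and 48 HAF was 1.96 (interval 0.726 to 3.20, unadjusted p = 0.00605, limma adjusted p = 1.0).

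Related probe sets did not read alike. Of 13 others that share its cluster number in the array's naming or its gene symbol, 0 were at least 2-fold higher against both controls and 1 was higher without overlap. That one, the other probe set annotated to this gene, lay near the bottom of the scale, at 2.02 and 1.76 in control and 2.11 and 2.91 in drought seeds. Most of the 13 were lower by the mean, mostly by small amounts. The largest such difference was -1.40, at 11.51 and 8.53 in control and 9.04 and 8.21 in drought seeds, with control replicate 1 standing high. The higher level of LOC542817 thus rests on 1 probe set of a type that can match several transcripts.

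The other probe sets higher against both controls carried no gene symbol, and the plot of these probe sets gives their identifiers. The first read 5.47 and 5.93 in control and 7.16 and 7.22 in drought seeds, a difference of 1.49 (interval 0.419 to 2.56, limma unadjusted p = 0.0121, adjusted p = 1). Its 4 related probe sets were all higher without overlap, as were 13.0% of all probe sets, and 0 of them by 2-fold against both controls. They share 1 cluster number and are not independent of each other. On them drought replicate 1 was only 0.030 to 0.325 above control replicate 2, and drought replicate 2 was 0.948 to 1.228 above it. The second read 3.46 and 3.51 in control and 4.67 and 4.81 in drought seeds (1.26, interval 0.409 to 2.11, limma unadjusted p = 0.00875, adjusted p = 1). At 48 HAF it went the other way, at 4.41 and 5.17 in control and 3.20 and 3.56 in drought seeds. Its unadjusted interaction p was 0.000789, but limma's adjusted p was 1.0. Drought seeds at 72 HAF were within the range of watered seeds at 48 HAF for this probe set.

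**Figure D2:**
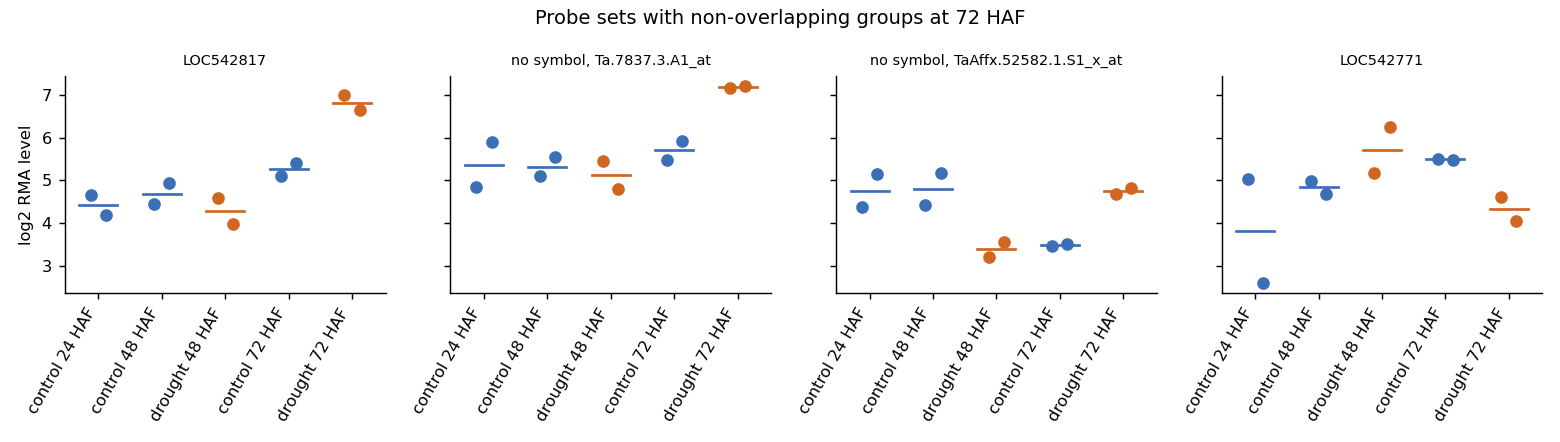
Log2 level on each array (points) with the mean of each group (lines) for the 3 probe sets at least 2-fold higher against both controls and for LOC542771, the annotated gene nearest to the limit downward. In the first panel the drought points at 72 HAF, 7.01 and 6.64, lie above all other points, and in the third panel drought is below control at 48 HAF and above it at 72 HAF.

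Smaller differences separated the groups at further probe sets, but not more often than interchangeable arrays would give. The groups did not overlap at 7930 probe sets upward (13.0%) and 5121 downward (8.37%), and at 213 (0.348%) and 186 (0.304%) with means at least 2-fold apart. If the 2 against 2 arrays were interchangeable, a share of 0.333 would not overlap, counting both directions. The upward and downward shares add up to less than that, so non-overlap of a gene is a description only. Among the 102 readable genes, 15 were higher and 6 lower without overlap. Upward, the annotated genes named after LOC542817 included LOC543377, at 2.81 and 3.34 in control and 3.94 and 4.05 in drought seeds (0.92, interval 0.23 to 1.61, limma unadjusted p = 0.0148, adjusted p = 1). LOC543179 read 2.36 and 2.30 against 3.00 and 2.97. Neither carried a readable name, and both were near the bottom of the scale.

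PIMT (LOC543193), which encodes the enzyme that repairs isoaspartate damage in ageing seed proteins, read 4.65 and 4.44 in control and 5.02 and 5.57 in drought seeds. Its difference of 0.75 had an interval of -0.0381 to 1.54. LOC778398 read 4.67 and 4.56 against 5.12 and 5.62, and LOC100125730 read 7.80 and 8.13 against 8.60 and 8.65. These 3 genes did not overlap between the groups, and control replicate 1 lay nearer to control replicate 2 than to either drought array. The remaining upward genes of this kind were LOC606367, LOC543127, LOC100125732, LOC543167, the low molecular weight glutenin LOC543213 and a dim probe set for rbcl, with differences of 0.41 to 0.99.

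Downward, the gene nearest to the 2-fold limit was LOC542771. The probe set concerned read 5.51 and 5.48 in control and 4.61 and 4.05 in drought seeds, a difference of -1.17 (interval -2.80 to 0.471). At 48 HAF the same probe set was higher in drought seeds, at 5.18 and 6.23 against 4.99 and 4.68. Its other probe sets did not all follow: one read 7.03 and 6.62 against 6.24 and 5.99, and another 6.29 and 6.09 against 6.24 and 6.78. LOC778395 read 7.87 and 7.15 in control and 6.87 and 6.09 in drought seeds, and LOC543018 read 7.32 and 7.09 against 6.89 and 5.10. In both, drought replicate 2 was the lowest array and drought replicate 1 lay a little under control replicate 2. The histone H2A-2 (LOC732712) read 9.01 and 7.42 against 6.66 and 7.21, with control replicate 1 standing high. The other 8 probe sets of the downward list, for LOC542946, LOC606390, LOC606373, LOC543168, LOC543444, LOC543016, LOC100125715 and rbcl, differed by -0.86 to -0.35. A brighter probe set for LOC543016, among the 5 smallest unadjusted p-values, read 5.29 and 4.58 in control and 4.54 and 2.52 in drought seeds. Its difference was -1.40 (interval -2.79 to -0.0135, limma unadjusted p = 0.0482) and was not called after adjustment. Drought replicate 1 lay just under control replicate 2 there.

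Far more probe sets differed from control replicate 1 alone. Both drought arrays were at least 2-fold above it, and neither at least 2-fold above control replicate 2, at 788 probe sets (1.29%), and the reverse held at 511 (0.835%). The higher ones included 56 probe sets of 44 genes, and the lower ones 20 probe sets of 18 genes. Counted by the brightest probe set of each gene, 38 of the 771 genes were higher and 14 lower. Among the 102 readable genes these counts were 13 and 2. Of the 13, 5 were storage proteins, 4 stood in the inhibitor list, 3 were thionins and 1 was the catalase gene CAT1. Genes in the class only by a dimmer probe set, such as the avenin-like ALP, are not among the 13. These classes were cut on the same values, so their differences from control replicate 1 are a description and carry no test.

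**Figure D3:**
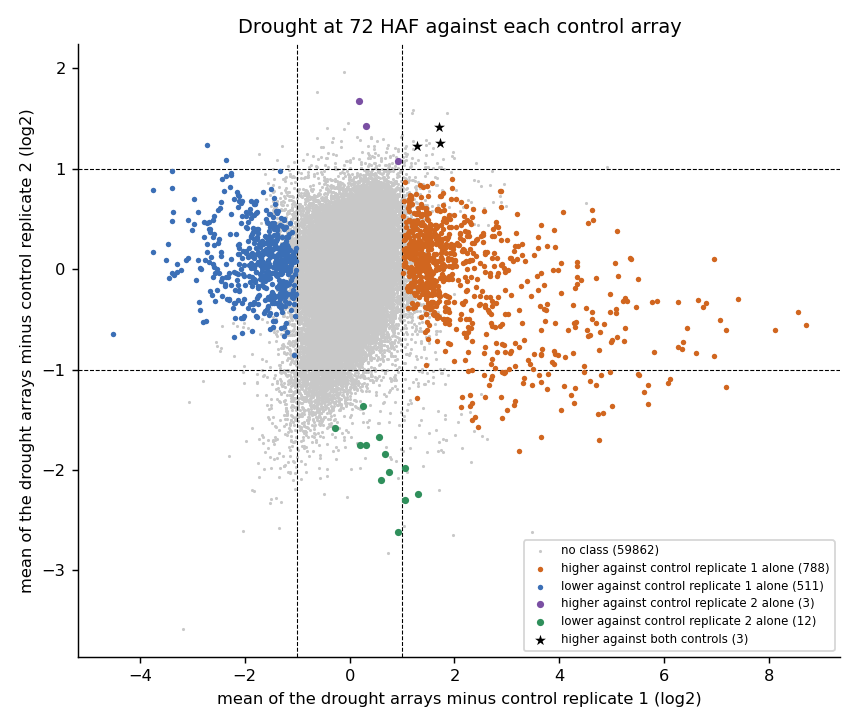
Each point is a probe set, placed by the mean of the 2 drought arrays minus control replicate 1 (horizontal) and minus control replicate 2 (vertical), both in log2. The dashed lines mark 2-fold, and the 3 probe sets that are also lower against control replicate 2 alone are drawn with the 788. The orange arm reaches far to the right while staying near or under 0 vertically. The 3 stars are the probe sets at which all 4 single differences are at least 2-fold upward. Because the axes show means, other points can also lie beyond 2-fold on both axes, such as LOC542771 at -1.18 and -1.15.

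Against control replicate 2 the same probe sets showed little. Among the 788, the median of drought replicate 1 minus control replicate 2 was 0.118, and 782 of the 788 were within 2-fold. For drought replicate 2 the median was -0.105, and 147 were at least 2-fold below control replicate 2. Among the 511, the medians were -0.0108 and 0.165.

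The arrays of 48 HAF, which played no part in choosing these probe sets, were set beside them. The median level of the 788 was 4.60 on control replicate 1, 7.14 on control replicate 2, and 7.32 and 6.87 on the drought arrays. At 48 HAF it was 4.44 and 5.11 in control and 5.11 and 4.18 in drought seeds, and control replicate 1 of 72 HAF lay within that range. The 2 watered arrays of 24 HAF were far apart, at 4.63 and 6.04. At 683 of the 788 (86.7%) the mean of the 48 HAF controls was nearer to control replicate 1 than to the mean of the other 3 arrays of 72 HAF, against 45.7% of all tested probe sets. The 48 HAF control mean was within 2-fold of control replicate 1 at 91.1% of the 788 and 66.9% of the 511, against 97.3% of all. For the 511 the share nearer to control replicate 1 was 58.5%, with medians of 7.19 on control replicate 1 and 5.23 to 5.39 on the others. At 48 HAF the median of the 511 was 6.84 and 6.09 in control and 6.16 and 6.93 in drought seeds. Unlike for the 788, control replicate 1 of 72 HAF thus lay outside that range, above it, and the other 3 arrays of 72 HAF lay below it. Between drought and control seeds at 48 HAF the median difference of the 788 was -0.12, with 272 higher in drought, against 0.00222 and 30882 of 61179 over all probe sets.

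Among annotated genes, the largest of these differences belonged to a storage protein. The gamma-gliadin LOC543214 read 1.60 on control replicate 1, 8.73 on control replicate 2, and 8.62 and 8.17 on drought replicates 1 and 2. The drought mean was 6.80 above control replicate 1 and 0.33 below control replicate 2, so the sign depended on the control array. The interval of the labelled difference, 3.23, ran from -1.83 to 8.29. Its level on the 4 arrays of 48 HAF was 1.59 to 1.80, close to control replicate 1. In watered seeds of 24 HAF it was 1.84 on replicate 1 and 7.55 on replicate 2, so a low level was not shared by all younger arrays. A second, dimmer probe set for the gene read 2.13, 4.09, 4.10 and 5.30 in the same order.

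The Gli-2 gliadins behaved in the same manner. LOC543210 read 3.11 and 8.94 in control and 8.96 and 8.18 in drought seeds, and LOC543211 read 4.61 and 10.13 against 10.21 and 9.16. The avenin-like gene avnla (LOC780582), related to the gliadins, read 3.95 and 8.43 against 8.58 and 6.30. On all 3, drought replicate 1 matched control replicate 2 to within 0.15, and drought replicate 2 was lower than both. The Gli-2 gene LOC543212 was dim throughout, at 2.13 and 3.72 against 3.87 and 2.82, as was LOC543385, at 1.60 and 1.98 against 2.72 and 2.14.

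Among the storage proteins, the low molecular weight glutenin LOC543213, a subunit of the gluten polymer, was higher without overlap on its brightest probe set. It read 5.69 and 6.97 in control and 7.33 and 7.32 in drought seeds, a difference of 0.99 (interval -0.641 to 2.63, limma adjusted p = 1), and 0.35 above control replicate 2. The brightest probe set of the avenin-like ALP (LOC100125692) read 9.50 and 9.84 against 9.77 and 8.59, and at 48 HAF 9.91 to 10.08. Its other 3 probe sets instead followed the gliadins, as in the one at 3.34 and 8.74 against 8.86 and 7.37. Over the 8 storage genes the median level was 3.53 and 8.58 on the control arrays and 8.60 and 7.75 on the drought arrays. By the mean difference 7 were higher and 1 lower, with a median of 1.12 against -0.00611 over all 771 genes. That median was 2.56 against control replicate 1 and -0.375 against control replicate 2.

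The inhibitors of amylases and proteases, which are also laid down in the starchy endosperm, split into bright genes that followed the gliadins and dim serpins. The 2 genes listed as ATI, the amylase and trypsin inhibitors, read 4.47 and 11.42 in control and 11.46 and 10.76 in drought seeds (LOC543281), and 5.19 and 11.29 against 11.28 and 10.64 (LOC543286). WMAI-1 (LOC542981), a monomeric amylase inhibitor, read 4.12 and 8.02 against 8.08 and 6.29. The gene wci, whose name the tables do not spell out, read 5.83 and 8.87 against 9.02 and 8.69. In each of these 4 genes control replicate 1 was the lowest array and drought replicate 1 lay within 0.16 of control replicate 2.

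The serpins, which inhibit proteases, differed less. WSZ1b (LOC100037548) was higher without overlap at 3.83 and 4.13 against 4.30 and 4.76, while Z1C read 2.24 and 2.59 against 2.46 and 3.02 and Z2B 3.03 and 3.08 against 2.86 and 3.52. Serpin Z2A was lower without overlap by small amounts, at 2.91 and 3.04 against 2.89 and 2.86. The xylanase inhibitor XIP-I (LOC542997) was also lower without overlap, at 6.10 and 5.52 against 5.46 and 5.25. Over the 9 genes 7 were higher by the mean, with a median of 0.556, or 0.707 against control replicate 1 and -0.166 against control replicate 2.

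Thionins are small antimicrobial peptides of the endosperm, and the THI1 thionin genes were as far apart between the control arrays as the bright gliadins. THI1.1 read 5.18 and 11.80 in control and 11.81 and 10.14 in drought seeds. THI1.3 (LOC543413) read 2.81 and 9.85 against 9.77 and 7.25, and THI1.2 read 4.76 and 10.94 against 10.27 and 8.73. All 3 were at least 2-fold lower on drought replicate 2 than on control replicate 2. The other genes of the list were less far apart. The lipid transfer protein gene LTP3 read 12.47 and 12.70 against 12.79 and 12.59, and TTHV, dim throughout, 2.44 and 2.91 against 3.20 and 2.96. PR5, a thaumatin-like defence gene, was dim, at 2.57 and 2.17 against 2.24 and 3.35. Of the 6 genes 6 were higher by the mean (median 1.04), and the median was 2.69 against control replicate 1 and -0.418 against control replicate 2.

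**Figure D4:**
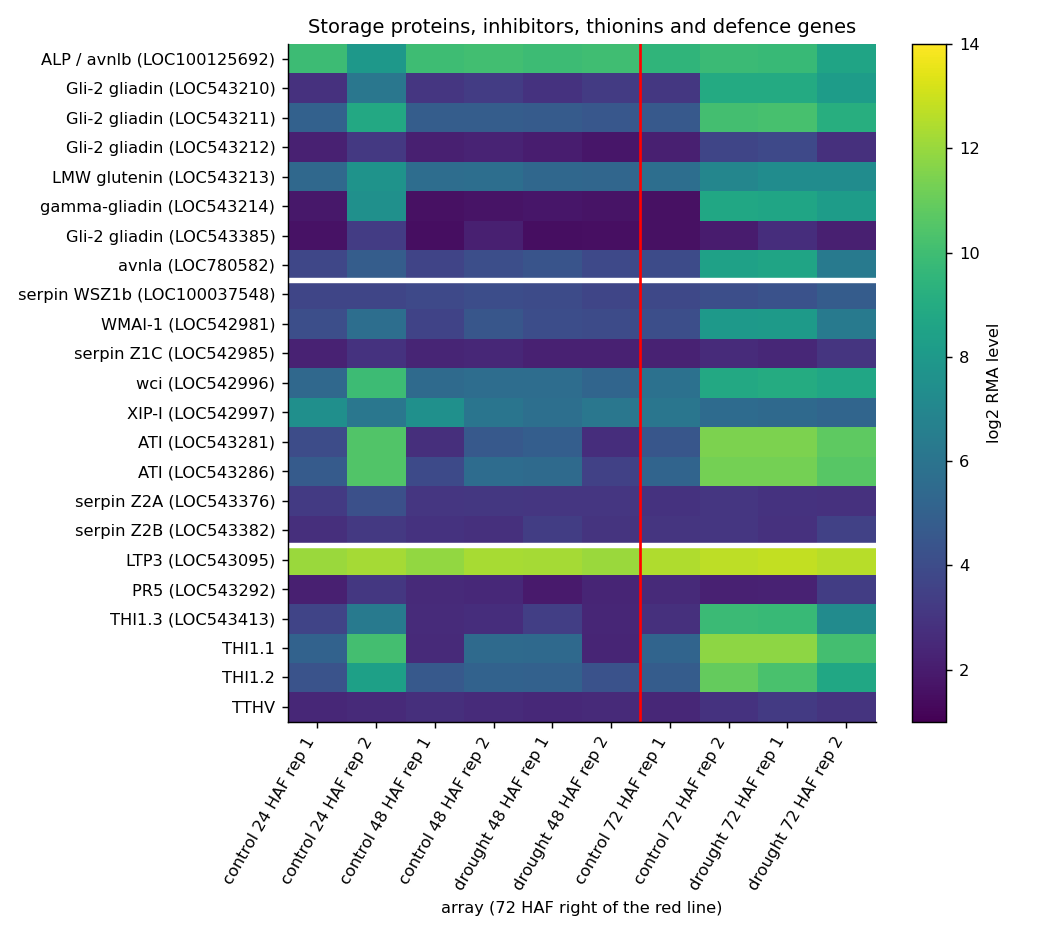
Log2 level of each gene (its brightest probe set) on all 10 arrays, with storage proteins on top, inhibitors in the middle and thionins and defence genes at the bottom. Right of the red line, the gliadins LOC543214, LOC543210 and LOC543211, the ATI genes and the THI1 genes are dark on control 72 HAF replicate 1 and bright on the other 3 arrays. They are also brighter on control 24 HAF replicate 2 than on the 48 HAF arrays. The Gli-2 genes LOC543212 and LOC543385 and TTHV are dark throughout.

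The 18S probe set was lowest at 72 HAF on the same array as these genes, control replicate 1. On control replicate 2 of 48 HAF it read 11.6, with the gamma-gliadin at 1.71. Its part in these differences was not tested. Other genes of the 788 without a readable name were as far apart. LOC100125699 read 2.17 and 9.31 in control and 9.35 and 7.67 in drought seeds, and LOC543098 read 2.15 and 6.87 against 7.06 and 7.45.

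By their brightest probe sets, 2 readable genes were lower against control replicate 1 alone. The fructan exohydrolase 6-FEH (LOC780575), which breaks down fructan reserves, read 9.10 and 7.26 in control and 7.30 and 7.31 in drought seeds. Its level at 48 HAF was 8.35 to 9.62, so control replicate 1 lay in that range and the other 3 arrays below it. The histone H2A-2, given above, read 7.71 to 8.80 at 48 HAF. Genes known only by number were LOC542796 at 8.34 and 5.52 against 5.47 and 6.06, and LOC542888 at 5.64 and 3.37 against 3.25 and 2.45. LOC100037600 read 9.84 and 6.39 against 6.52 and 8.43, so drought replicate 2 lay between the 2 controls. LOC100037562, LOC100125700 and LOC542799 had differences of -1.30 to -0.97 from the mean of both controls.

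Against control replicate 2 alone very little differed. Higher were 3 probe sets (0.0049%), with 1 gene, LOC542778, at 5.91 and 4.79 in control and 6.09 and 6.35 in drought seeds. Lower were 15 (0.0245%), none with a gene symbol, and 3 of these were also higher against control replicate 1 alone. Their median level was 3.20 and 6.45 on the control and 4.67 and 4.20 on the drought arrays, with control replicate 2 the highest.

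The genes best known for answering water deficit differed little, but 4 of the 5 dehydrin and LEA genes had a drought mean under 4.5. At such levels, near the bottom of the scale, a flat reading is weak evidence of no change. LEA1 (LOC543476) read 3.43 and 3.46 in control and 3.60 and 4.56 in drought seeds, a difference of 0.63 (interval -0.576 to 1.84, limma adjusted p = 1), and the gap between the drought arrays exceeded it. The dehydrins Rab15 (LOC543293) and COR410 read 5.55 and 4.98 against 4.82 and 5.04, and 2.73 and 2.59 against 2.50 and 3.19. The Em genes EMH2 (LOC543480) and EM (LOC543497), of mature embryos, were within 0.5 on all 4 arrays, at 4.29 to 4.38 and 2.92 to 3.30. Over the 5 genes 2 were higher and 3 lower by the mean, and the median was -0.0466. It stayed near 0 against each control, at -0.0769 and -0.0163. The small heat shock gene hsp16.9A (LOC543277), also near the bottom of the scale, read 3.98 and 3.85 against 3.91 and 4.01. Its difference of 0.05 had an interval of -0.784 to 0.882. The immunophilin chaperone gene FKBP70 (LOC543314) read 10.28 and 10.63 against 10.53 and 9.18, low on drought replicate 2 alone.

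Of the 5 antioxidant genes, 3 were higher without overlap, as were 84 of all 771 genes and 13.0% of all probe sets. PER1 (LOC543108), also listed as peroxidase, read 4.31 and 5.07 in control and 5.36 and 6.59 in drought seeds, a difference of 1.28 (interval 0.193 to 2.37, limma unadjusted p = 0.0261, adjusted p = 1). The 4 arrays of 48 HAF read 4.31 to 4.61. Its other probe set went the other way, at 4.72 and 4.96 against 4.99 and 3.93. CAT1, which removes hydrogen peroxide, read 5.78 and 7.10 against 7.14 and 7.50, and thioredoxin Trx-M (LOC542973) 8.87 and 9.45 against 9.54 and 9.95. In both, drought replicate 1 was within 0.1 of control replicate 2. The peroxiredoxin Prx1 (LOC606328) read 9.87 and 10.29 against 10.19 and 9.36, and the glutathione transferase GSTZ1 (LOC543412) 6.51 and 7.24 against 7.16 and 6.47. The list's median was 0.588 (3 higher, 2 lower), or 0.878 and 0.219 against control replicates 1 and 2.

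Among the 8 starch, sugar and hormone genes, some read nearly alike on drought replicate 2 and control replicate 1, which was not tested, and others did not. The small subunit of ADP-glucose pyrophosphorylase, AGP-S (LOC543299), which makes the sugar donor for starch, read 9.58 and 11.34 in control and 11.20 and 9.60 in drought seeds. The gibberellin 20-oxidase GA20ox1d (LOC543325), of a late step in making gibberellin, read 5.93 and 4.96 against 4.90 and 6.17. The invertase gene IVR1 (LOC543415) read 3.06 and 2.43 against 2.37 and 3.15, and 1-FEH (LOC543441) 7.93 and 8.50 against 8.43 and 7.70. In each of these 4 genes the difference of the group means was small, between -0.15 and 0.09, and the replicates lay further apart than the means. For IVR1, near the bottom of the scale, and 1-FEH the replicates were still within 2-fold of each other. The copies GA20ox1-A (LOC543327) and GA20ox1b (LOC543326) read 4.85 and 4.36 against 4.09 and 4.87, and 3.02 and 2.67 against 2.76 and 2.67. Granule-bound starch synthase, waxy (LOC543395), hardly varied, at 10.70 and 10.68 against 10.74 and 10.81.

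Of the photosynthesis genes, 5 of 6 were higher by the mean, by a median of 0.205, with 0 past the test. PsbO (LOC543291), of the oxygen-evolving complex, read 10.83 and 10.97 in control and 11.25 and 11.30 in drought seeds without overlap (0.37, interval -0.283 to 1.03, limma adjusted p = 1). The Rieske protein gene petC read 11.20 and 11.34 against 11.36 and 11.55. PsbP (LOC543290) read 10.77 and 11.38 against 11.50 and 11.07, and the Calvin cycle genes PRK (LOC543283) and FBP 9.41 and 10.56 against 10.44 and 9.93, and 8.08 and 8.49 against 8.76 and 8.49. The rubisco large subunit rbcl (LOC100049018) was between 13.94 and 14.09 on all 4. Against control replicate 1 the list's median was 0.482, and against control replicate 2 it was 0.0186.

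Genes of dividing and growing cells leaned the other way against control replicate 1. Of the 6 chromatin genes, 5 were lower by the mean (median -0.143), at -0.441 against control replicate 1 and 0.155 against control replicate 2. H2A-3 (LOC732713) read 11.59 and 10.44 in control and 10.42 and 11.20 in drought seeds, and H2A-9 (LOC732714) 12.57 and 11.91 against 11.96 and 12.17. H2B-8 (LOC543184) and the HMG protein gene Hmgb3 (LOC543333) were likewise highest on control replicate 1 and next highest on drought replicate 2, and H2B-6 (LOC543183) varied only between 11.70 and 11.82. The cell wall gene XTH, which remodels xyloglucan, read 9.68 and 8.45 against 8.84 and 9.68. Among the 6 tubulin genes, 3 were higher and 3 lower with a median of 0.00966. The beta-tubulins Tubb4 (LOC543260) and Tubb5 (LOC543261) were high on control replicate 1 and drought replicate 2, at 10.87 and 10.09 against 10.22 and 10.89, and 11.68 and 10.90 against 10.98 and 11.58.

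The remaining lists with over 1 gene had medians between -0.0838 and 0.246. The 6 translation genes had a median of -0.0838 (2 higher, 4 lower), with the largest difference, -0.25, at the dim RPS29. The ion transport genes TPC1 (LOC543074), ALMT1 (LOC543388) and the proton pump ha1 (LOC543149) differed by -0.57, 0.33 and 0.25. The 3 genes of pollen and anther, raftin1a, raftin1b and profilin, had a median of 0.0277, and raftin1b read 4.80 and 4.46 against 4.14 and 5.32. None of the 74 listed genes was at least 2-fold higher or lower against both controls. Their limma adjusted p-values were all 1.

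**Figure D5:**
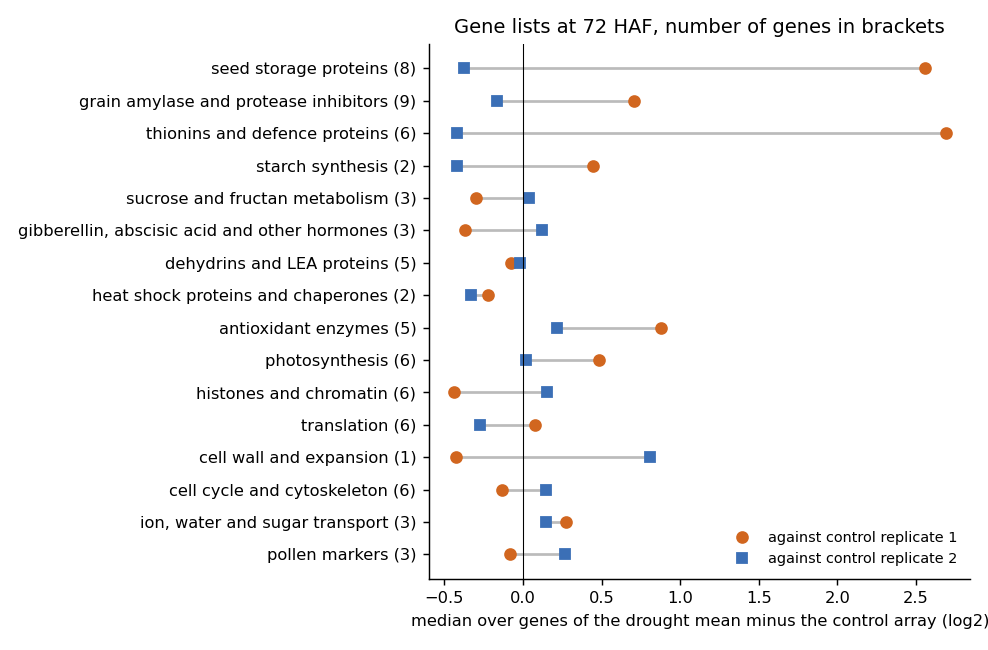
For each gene list, the median over its genes of the drought mean minus control replicate 1 (orange circles) and minus control replicate 2 (blue squares), in log2, with the number of genes in brackets. Storage proteins and the list of thionins and defence proteins lie at 2.56 and 2.69 against one control and at -0.375 and -0.418 against the other. Dehydrins and LEA proteins lie near 0 against both, but 4 of these 5 genes had a drought mean under 4.5.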

How the data were processed

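Each sample's seed RNA was measured on 1 Affymetrix wheat array. The authors deposited log2 levels made with affy and RMA, per the submitters' processing notes, whose versions were not given in the sources used. RMA gives all arrays 1 distribution of probe signals, so a shift of the whole transcriptome is not visible. The levels per probe set still differed in spread between arrays. Values on the 4 arrays ran from 1.03 to 14.1 and were used as deposited. Leaving out 111 control probe sets from 61290, the other 61179 were tested without a filter. Gene symbols came from the platform annotation (1273 probe sets with 1 symbol, 0 with several, 59906 with none), and 770 of 771 genes matched a reference gene table, which supplied synonyms. No sequence of the probe sets was used.

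The test was that of limma 3.58.1 (R 4.3.3) on all 10 arrays, with 1 mean for each of 5 groups and a variance trend (5 residual and 3.59 prior degrees of freedom). P-values were Benjamini-Hochberg adjusted over 61179 probe sets. The step was tested on simulated data. Fold classes, non-overlap and list medians are descriptions without a test. Of 17 gene lists, 16 had a member and the list of transcription factors had none. The 74 members comprised 28 found by pattern and 46 placed by their name after the names were seen, each represented by its brightest probe set. The comparison, the members and the lists were chosen with earlier results of these data known.

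Genes were named by rule. It took up to 12 genes in each direction against both controls, filled with those whose groups did not overlap, by the smallest of the 4 differences, and up to 8 each against control replicate 1 alone and 6 against control replicate 2 alone. It added the 5 smallest unadjusted p-values, up to 4 members of each list, all members of lists gone through in full, and up to 3 unnamed probe sets in each direction. Genes outside it are named as chosen after their values were seen. Alternatives were other fold limits, scalings, variance models and array sets, a dim filter (at least 6 on 2 or more arrays), and each array left out. Leaving out a drought array for the classes against 1 control, and the crossed replicate block, were added after seeing the data.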

Additional observations from a re-analysis of the deposited data

How the results depend on the processing

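limma called 0 probe sets for the labelled comparison in each of 19 other settings, while the number with an unadjusted p under 0.05 ran from 12 (dim probe sets left out) to 2960 (without drought replicate 1). It was 33 without control replicate 1, 1040 without control replicate 2 and 179 without drought replicate 2. The labels do not pair the replicate numbers, and the replicate differences of the control and drought groups correlated at -0.519. With the replicate number as a block 0 were called (243 unadjusted) and with crossed numbers 0 (183), and the block left the difference from the 48 HAF effect at 0 (192).

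The fold classes moved with the limit and the arrays. At 1.5-fold they held 94 higher and 10 lower against both controls, 1616 and 1543 against control replicate 1 alone and 62 and 63 against control replicate 2 alone. At 4-fold the first held 0 higher, the second 259 and 85, and the third 0 and 0. Leaving out an array gave 7 to 914 higher and 1 to 3262 lower against both controls. Without a drought array the classes against control replicate 1 alone held 1379 to 2559 higher and 977 to 1776 lower, and those against control replicate 2 alone 9 to 2573 and 26 to 3300. Without dim probe sets the 15 lower against control replicate 2 alone became 7; median centring and renewed quantile normalization left every class within 1.5 times. The cause was not tested. Of 89 named probe sets, the difference changed sign in 25, 11, 8 and 21 without control replicates 1 and 2 and drought replicates 1 and 2, and of 16 list medians in 7, 4, 4 and 5. With 2 arrays a group, no value here is precise.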

Other observations

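The genes on which drought replicate 2 stood at least 2-fold apart from each of the other 3 arrays of 72 HAF included few with a readable name, and these were chosen after their values were seen. Of 13 genes above, 3 had one, and of 53 below, 4 had one. The phytochelatin synthase gene PCS1 (LOC542834), whose enzyme makes metal-binding peptides, read 6.61 and 7.06 in control and 6.95 and 5.29 in drought seeds. The calcium channel gene TPC1 (LOC543074) read 6.46 and 6.51 against 6.63 and 5.20, and FKBP70 (LOC543314) has been given above. A ubiquitin-conjugating enzyme probe set of LOC543219 (UBC1) read 7.19 and 6.68 against 6.80 and 8.78.

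On control replicate 2 of 24 HAF, the array with the highest BioB signal of the 10 (11.9), the 4 genes named here stood on the same side as on drought replicate 2. PCS1 (LOC542834) read 4.29 there and 7.35 on control replicate 1 of 24 HAF. TPC1 (LOC543074) read 4.18 against 7.06, and FKBP70 (LOC543314) 9.05 against 10.60. The probe set of LOC543219 read 9.84 there, its highest value on the 10 arrays. The replicate differences of watered seeds at 24 HAF and of droughted seeds at 72 HAF correlated at 0.586 across probe sets. Control replicate 2 of 24 HAF also had the narrowest interquartile range of the 10 arrays, 2.38, followed by drought replicate 2 of 72 HAF, 3.30. The part of the BioB signal and of this spread in the shared differences was not tested.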
